A study of Mus musculus with 8 samples.

Results

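Carbonic anhydrases are zinc enzymes that interconvert carbon dioxide and bicarbonate with release or uptake of a proton. In the heart they take part in moving carbon dioxide from working muscle cells into the blood and in keeping the pH of cells and interstitium steady. Some members sit on the cell surface facing outwards, others lie in the cytosol or the mitochondrion, and a few have lost the catalytic site altogether. The 9 genes described here, Car2, Car3, Car4, Car5b, Car8, Car9, Car12, Car13 and Car14, are 9 of the 22518 genes in the deposited expression table. They were taken by symbol. The family was chosen on the measured difference of Car4 between the groups, one of the largest falls in the same hearts, so the knockout against wild type values of the members are given as a description, with no p-value. A further 6 carbonic anhydrase genes with values, Car1, Car6, Car7, Car10, Car11 and Car15, were set beside them, and Car5a was used only for its sequence, its level being not analysed here.

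RNA came from whole hearts of C57BL/6 mice at postnatal day 12. One group of 4 libraries is from wild type littermates, and the other 4 are from mice with an endothelial knockout of PHD2 and PHD3, the oxygen-dependent enzymes, encoded by Egln1 and Egln3, that mark hypoxia-inducible factors (HIF) for degradation. The labels do not name the Cre line or the alleles, and they do not state whether each library is its own animal, so the p-values cover only the spread among these libraries. For brevity each library is called a heart below. Values are FPKM (fragments scaled by transcript length and library size), a level per transcript length, quantile-normalised by the authors, and the depth is unknown. Group values are means ± SD with n = 4. Log2 changes are knockout minus wild type differences of log2(FPKM + 1) ± SE, a scale that understates the change of low genes.

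Across the series, 1385 of the 11390 genes that averaged 1 FPKM or more passed an adjusted p of 0.05 in limma, which is 12.2% of the genes tested. The lower calls made up 6.01% and the higher calls 6.15%. Such genes are said below to be called. The count rests on single hearts: it was 574 without wild type replicate 2, and 613 with the replicate number as a block. Neither targeted gene was lower in the libraries labelled knockout: the log2 change was 0.12 ± 0.09 for Egln1 (limma adjusted p = 0.442) and 0.55 ± 0.22 for Egln3 (limma adjusted p = 0.132), so these 2 genes do not check the labels. Wild type replicate 4 stood apart in lung and airway epithelial markers, which summed to 1842 FPKM there and to between 0.502 and 1.49 FPKM in the other 7 hearts.

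The catalytic site of the family holds a zinc ion on 3 histidines, the first 2 of which are 1 residue apart. The coding sequence around those 2 codons is printed here for the members with the highest levels, for Car2 as the best-known cytosolic enzyme, and for Car7. Each run has 21 bases, read 5′ to 3′ on the coding strand of the GENCODE M21 gene models on GRCm38, with the codons at both zinc positions in capitals.
Car4: cagttgCACctgCACtggtca
Car14: cagctcCACctgCACtggggt
Car2: cagtttCACtttCACtggggc
Car3: caattcCATcttCACtggggc
Car7: cagctcCACttcCACtggggc
Car8: gaagttAGAtttCACtgggga
Car4 carries histidine codons at codons 114, 116 and 139, with the run above at chr11:84964161-84964181 in exon 4. Car8 has AGA, which is not a histidine codon, at codon 117 and so keeps 2 of the 3 histidine codons (chr4:8221607-8221627, exon 3, minus strand). The other 8 members keep all 3. Car8 is known as a carbonic anhydrase-related protein without catalytic activity that binds the inositol trisphosphate receptor.

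Car4 shares only short stretches of sequence with its relatives. It was 53.6% to 63.2% identical to the other 15 carbonic anhydrase genes of the mouse over the aligned coding sequence. The longest run of bases it shared exactly with any of them was 16, with Car9. Among the 9 members the 36 pairs were 54.4% to 66.2% identical, and the longest shared run was 32 transcript bases, in Car5b and Car9. Car14 overlaps Aph1a on the opposite strand over 445 of its 2543 exon bases, and Car9 overlaps Gm12454 on the opposite strand over 214 of 2304. Use of strand in the counting is not given in the sources used here. The levels of Car14 and Car9 may therefore hold reads of these neighbours.

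In wild type hearts the family was led by 2 membrane-bound enzymes. Car14, a transmembrane enzyme of cardiomyocytes, averaged 83.3 ± 3.98 FPKM, and Car4, an enzyme anchored by a lipid tail to the outer face of capillary endothelial cells, was at 29.9 ± 2.70 FPKM. Car8 followed at 7.72 ± 1.27 FPKM, Car3 at 3.62 ± 4.64 FPKM and Car2 at 2.29 ± 0.363 FPKM. Car9, Car13, Car5b and Car12 had means of 0.485, 0.326, 0.259 and 0.0485 FPKM. The 4 values of neighbours in this order did not overlap between Car14 and Car4, Car4 and Car8, Car2 and Car9, or Car5b and Car12. Those of Car8 and Car3, Car3 and Car2, Car9 and Car13, and Car13 and Car5b did overlap, so their order is not settled. Without wild type replicate 4, 7 of the 9 members kept their place. In the knockout hearts Car14 was again first, while Car4 was at place 5 by its mean, with values that overlapped those of Car2 above it and Car13 below it.

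**Figure D1:**
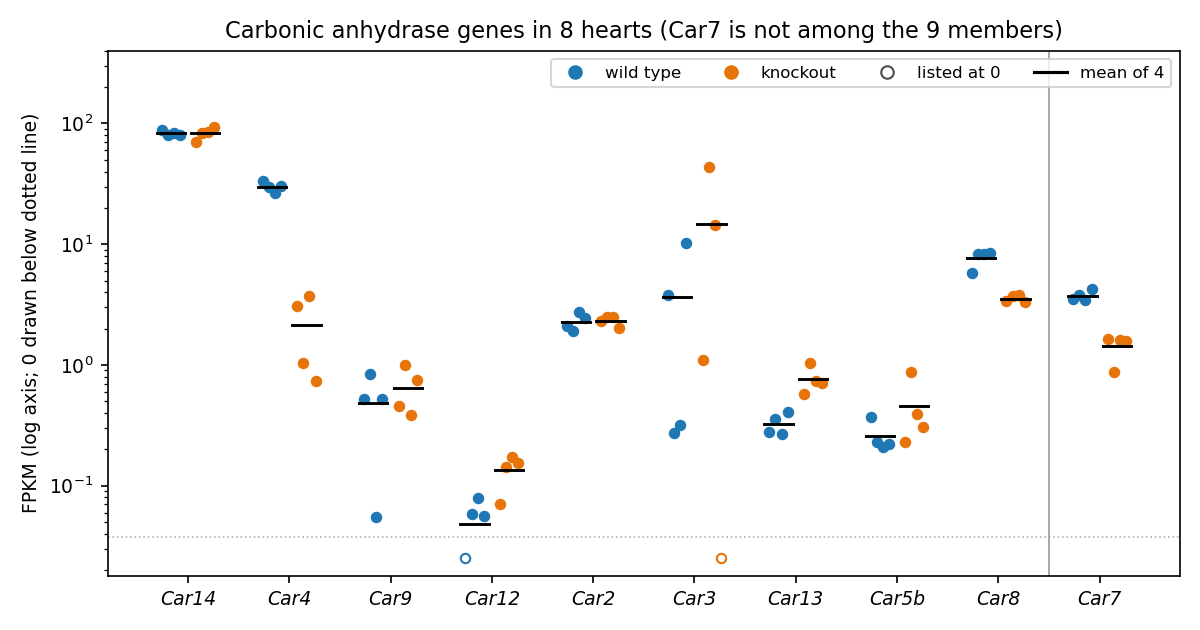
FPKM on a log axis for the 9 members and Car7, with each point 1 heart (wild type blue, knockout orange), the line the mean of 4 hearts and open points genes listed at 0. Car4 lies between 26.5 and 33.1 FPKM in wild type and between 0.742 and 3.73 FPKM in knockout hearts, while Car14 overlaps between the groups.

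Of the 9 members, 5 reached a mean of 1 FPKM and entered the fit across all genes. Its threshold placed Car4 and Car8 among the lower genes and Car2, Car3 and Car14 among those not called, beside 12.2% called of all genes. These placings only describe the members and are no test of them, because the contrast chose the family. The median log2 change of these 5 members was -0.01, the same as that of all genes tested. The groups did not overlap for 3 of the 9 members, Car4 and Car8 lower and Car13 higher in knockout hearts. The same held for 15.8% of the 17874 genes above 0 in at least 1 heart.

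Car4 (chr11:84957786-84966044, plus strand) measured 33.1, 29.6, 26.5 and 30.3 FPKM in the wild type hearts, in replicate order, and 3.08, 1.03, 3.73 and 0.742 FPKM in the knockout hearts. All 4 knockout hearts were far below all 4 wild type hearts. The mean was 13.9-fold lower, at 2.15 ± 1.49 FPKM, and the log2 change was -3.42 ± 0.30. The wild type hearts lay close together, with a highest value 1.25 times the lowest, while among the knockout hearts replicate 3 was 5.03 times replicate 4. The coefficient of variation was 9.04% in wild type and 69.2% in knockout hearts. Knockout replicates 1 and 3 were thus near 3 FPKM, and replicates 2 and 4 near or under 1 FPKM. Without wild type replicate 4, the heart with airway markers, the log2 change was -3.41 ± 0.34.

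Car14 (chr3:95897768-95904691, minus strand), the other abundant membrane-bound member, was at 89.0, 80.7, 83.0 and 80.3 FPKM in wild type, against 70.3, 83.8, 84.5 and 93.6 FPKM in knockout hearts. The groups overlapped, with the lowest and the highest of the 8 values both in knockout hearts. The log2 change was -0.01 ± 0.09. Set against Car14 in the same heart, Car4 stood at 37.2%, 36.7%, 31.9% and 37.7% of the Car14 level in wild type hearts and at 4.39%, 1.23%, 4.42% and 0.793% in knockout hearts.

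Car9 and Car12 are transmembrane enzymes with an outward-facing catalytic domain, and Car9 is a textbook HIF target in tumour cells. Both were under the 1 FPKM minimum. Car9 (chr4:43506966-43513729, plus strand) was at 0.526, 0.842, 0.0551 and 0.518 FPKM in wild type, against 0.457, 0.994, 0.384 and 0.749 FPKM in knockout hearts, so the groups overlapped widely around means of 0.485 ± 0.324 and 0.646 ± 0.280 FPKM. Car12 (chr9:66713686-66766845, plus strand) was at 0, 0.0587, 0.0788 and 0.0565 FPKM in wild type, against 0.0701, 0.142, 0.174 and 0.155 FPKM in knockout hearts. The groups of Car12 touched only where knockout replicate 1 lay below wild type replicate 3. With no minimum the log2 change was 0.16 ± 0.18 for Car9 and 0.11 ± 0.04 for Car12, and neither was called.

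Summed over the 4 membrane-bound members, the level was 114 ± 5.97 FPKM in wild type, against 86.0 ± 8.90 FPKM in knockout hearts. Car4 made up 26.3% ± 1.42 of that sum in wild type and 2.59% ± 1.86 in knockout hearts. Over all 9 members the share of Car4 was 24.5%, 24.2%, 21.8% and 22.8% in the wild type hearts and 3.78%, 0.750%, 3.37% and 0.731% in the knockout hearts. Car14 took 65.2% ± 3.38 of the summed level in wild type and 78.9% ± 13.6 in knockout hearts. The sum of the 9 was 128 ± 7.03 FPKM and 108 ± 23.1 FPKM, and without Car3, the most variable member, 124 ± 4.63 and 93.1 ± 8.97 FPKM.

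**Figure D2:**
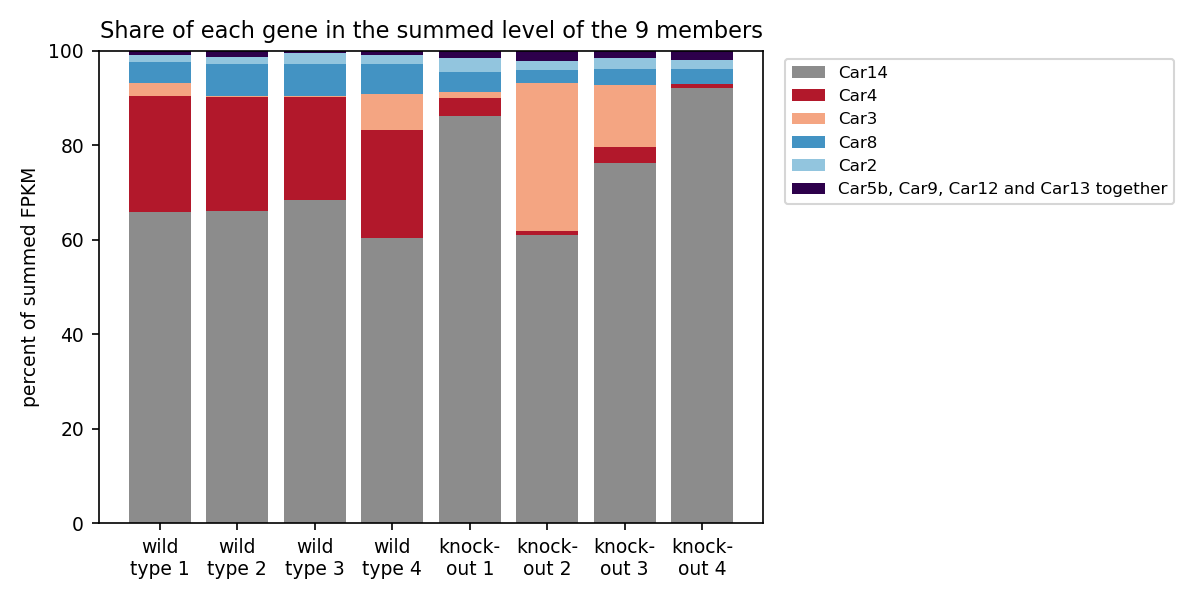
Each member's percent of the summed FPKM of the 9 members, 1 bar per heart, with the 4 lowest members drawn together. The Car4 segment shrinks from 21.8% to 24.5% in wild type hearts to at most 3.78% in knockout hearts, and Car3 takes 31.5% in knockout replicate 2.

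The cytosolic enzymes did not share 1 pattern. Car2 (chr3:14886273-14900770, plus strand), a fast enzyme abundant in red cells, was at 2.10, 1.90, 2.72 and 2.44 FPKM in wild type, against 2.31, 2.48, 2.48 and 2.01 FPKM in knockout hearts. The 8 values lay together and the log2 change was 0.02 ± 0.10. Erythroid markers ranged more widely in the same hearts: their sum was 2225 to 10584 FPKM in wild type, against 370 to 2781 FPKM in knockout hearts, with a median log2 change of -1.81. None of the 7 tested was called in limma, where 6 were lower at an unadjusted p under 0.05.

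Car13 (chr3:14641727-14663002, plus strand), a cytosolic enzyme encoded on the same chromosome as Car2 and Car3, was at 0.278, 0.356, 0.266 and 0.405 FPKM in wild type, against 0.574, 1.05, 0.741 and 0.712 FPKM in knockout hearts. Every knockout heart was above every wild type heart, with a ratio of means of 2.36. Its mean over the 8 hearts was under the minimum, so it was not tested. With no minimum on the level its log2 change was 0.41 ± 0.09 and it became the third member called, where 6.03% of the 17874 genes were called.

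Car3 (chr3:14863512-14872523, plus strand), a slow enzyme known from skeletal muscle and fat, was the most uneven member. It was at 3.77, 0.274, 0.321 and 10.1 FPKM in wild type, against 1.09, 43.2, 14.5 and 0 FPKM in knockout hearts. High and low hearts occurred in both groups, and the log2 change of 1.0 ± 1.35 was not called. Without knockout replicate 2 it was 0.05 ± 1.17. From the highest to the lowest heart, Car3 kept the order of the adipocyte hormone gene Adipoq, chosen after its values were seen: Adipoq was at 1.57, 0, 0.209 and 3.32 FPKM in wild type, against 0.546, 7.78, 5.04 and 0 FPKM in knockout hearts. Of the 11 adipocyte markers 10 were highest in knockout replicate 2, and 8, among them Cfd, Cidec and Ucp1, were listed at 0 in knockout replicate 4. Cidea, the most abundant, was nearly even, from 29.5 to 39.5 FPKM, and stood at 35.4 FPKM in knockout replicate 4. Slc36a2 was highest in wild type replicate 3 (7.42 FPKM). The summed 11 adipocyte markers ranged from 35.0 to 69.6 FPKM in wild type and from 37.1 to 97.7 FPKM in knockout hearts, with 1 of the 7 tested called (Slc36a2, lower) and a median log2 change of 0.50. Skeletal muscle markers summed to 11.5 to 13.5 FPKM and 6.87 to 16.1 FPKM, with 1 of 4 tested called lower and a median of 0.10. Like Car3, this sum was highest in knockout replicate 2 and lowest in knockout replicate 4. In knockout replicate 1, where Car3 was at 1.09 FPKM, it was also high, at 14.8 FPKM. Of these markers Tnnt3 was at 7.49 FPKM in knockout replicate 2 and at most 1.68 FPKM in any other heart. The part of fat or muscle RNA in the Car3 values was not tested.

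**Figure D3:**
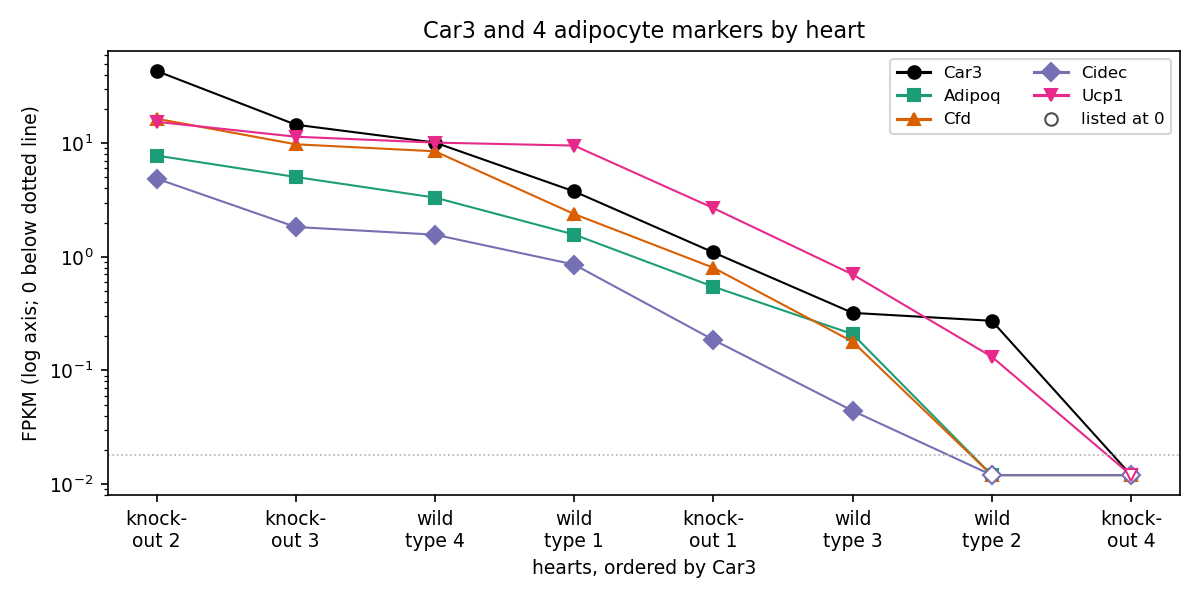
FPKM on a log axis of Car3 and of the adipocyte markers Adipoq, Cfd, Cidec and Ucp1 in the 8 hearts, ordered along the axis by their Car3 level, with open symbols for values listed at 0. All 5 genes are highest in knockout replicate 2 and are listed at 0 in knockout replicate 4.

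Car5b (chrX:163976822-164027997, minus strand), the mitochondrial enzyme, was low in every heart, at 0.373, 0.232, 0.207 and 0.223 FPKM in wild type, against 0.232, 0.880, 0.396 and 0.309 FPKM in knockout hearts. The groups overlapped. With no minimum the log2 change was 0.19 ± 0.12 and was not called.

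Car8 (chr4:8143362-8239041, minus strand), the member without the full set of zinc histidine codons, was at 5.82, 8.28, 8.23 and 8.54 FPKM in wild type, against 3.39, 3.72, 3.76 and 3.31 FPKM in knockout hearts. The groups did not overlap, and wild type replicate 1 lay between the knockout hearts and the other wild type hearts. The mean was 2.18-fold lower, at 3.55 ± 0.227 FPKM, and the log2 change was -0.93 ± 0.11. Unlike Car4, its knockout hearts were close together, with a highest value 1.14 times the lowest.

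Car7 (chr8:104534689-104550343, plus strand), a cytosolic relative that is not among the 9, fell as well. It was at 3.50, 3.81, 3.42 and 4.26 FPKM in wild type, against 1.64, 0.870, 1.62 and 1.57 FPKM in knockout hearts, with no overlap. The mean was 2.63-fold lower and the log2 change -0.98 ± 0.13 (limma adjusted p = 0.00207). It stayed called in each of the 14 alternative analyses that tested it, at adjusted p between 0.000665 and 0.0173. The other relatives were under the minimum: Car11 was at 0.743 ± 0.219 and 0.531 ± 0.214 FPKM in wild type and knockout hearts, Car15, which shares 1253 of its 1906 exon bases with Gm20518 on the same strand, at 0.333 ± 0.0985 and 0.355 ± 0.207 FPKM, and Car1, Car6 and Car10 did not exceed 0.128 FPKM in any heart.

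Because Car4 marks capillary endothelium, it was set beside endothelial genes of the same hearts. In whole-heart RNA, fewer cells of a type and less RNA per cell cannot be told apart. The sum of 17 pan-endothelial markers was 736 to 855 FPKM in wild type, against 712 to 775 FPKM in knockout hearts, so the groups overlapped. Car4 as a percent of that sum was 3.81% ± 0.456 in wild type and 0.286% ± 0.194 in knockout hearts. Against Pecam1, an endothelial adhesion gene, it was 31.6% ± 2.08 and 1.93% ± 1.32, and against Cdh5, the endothelial cadherin gene, 31.5% ± 2.37 and 2.56% ± 1.64.

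Among the 17 pan-endothelial markers 2 were called higher and 5 lower, with a median log2 change of -0.22. The lower calls included the endothelial gene Ushbp1 (-0.98 ± 0.11, limma adjusted p = 0.00105), the receptor genes Tie1 (-0.62 ± 0.08, limma adjusted p = 0.00202) and Tek (-0.57 ± 0.10, limma adjusted p = 0.00779), and the transcription factor gene Sox18 (-0.69 ± 0.11, limma adjusted p = 0.00497). The number called higher was between 0 and 3 in the alternative analyses. Among 20 capillary markers 3 were called higher (Fabp5, Rbp7 and Ly6a), 8 lower and 9 not called, with a median of -0.35. Their sum was 3254 to 3784 FPKM in wild type, against 3262 to 3834 FPKM in knockout hearts, so the groups overlapped. Fabp4, which was not called, was the largest part of that sum. The 4 calls with the smallest p were all lower. Aqp7, a water and glycerol channel, fell from 10.3 ± 1.01 to 1.22 ± 0.323 FPKM (log2 change -2.36 ± 0.12), and Tcf15, a transcription factor of capillary endothelium, from 11.6 ± 1.74 to 2.86 ± 0.684 FPKM (-1.72 ± 0.14). Rgcc, a cell cycle regulator gene, fell from 26.9 ± 3.40 to 9.67 ± 1.85 FPKM, and the tetraspanin gene Tspan13 from 42.2 ± 4.24 to 13.1 ± 4.17 FPKM. The limma adjusted p was 0.00139 for Tspan13 and smaller for the other 3. None of the 20 capillary or 17 pan-endothelial markers had a log2 change as low as that of Car4. Car4 was chosen for one of the largest falls in these hearts, so this place was largely set by the choice. At the other end stood Rbp7 in the capillary list (0.80) and Clec14a in the pan-endothelial list (0.70).

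**Figure D4:**
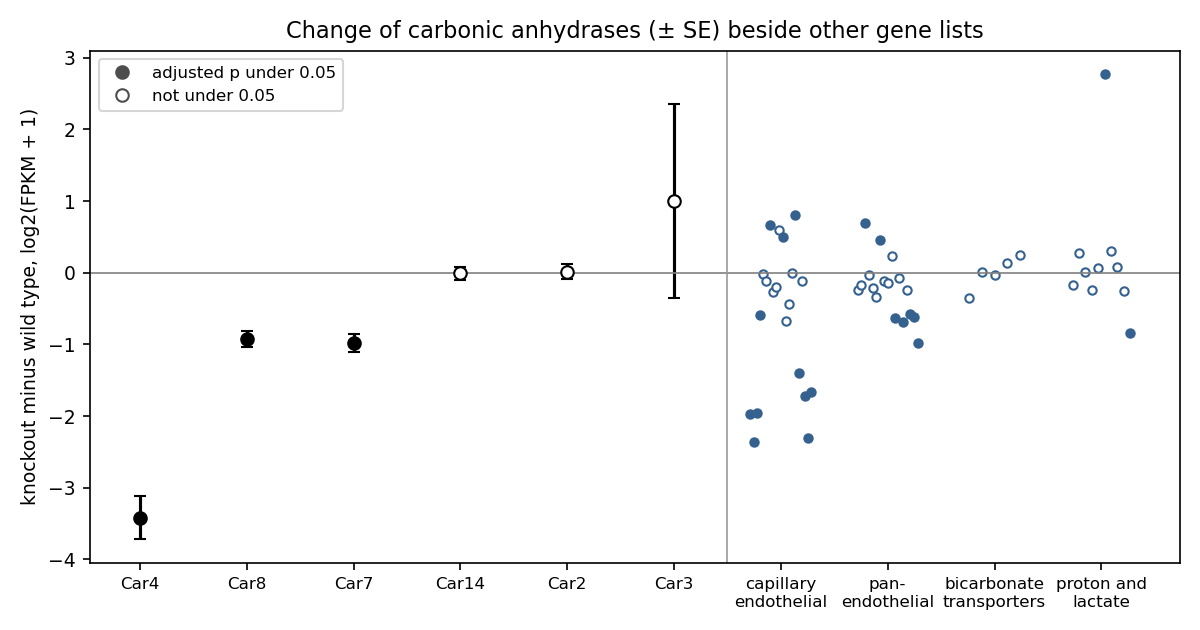
Knockout minus wild type difference of log2(FPKM + 1) for the 5 members in the fit and Car7, with SE bars, beside the tested genes of 4 other lists, where each point is 1 gene and filled points passed a limma adjusted p of 0.05 (for the members a description only). Car4 at -3.42 lies below every point of the capillary list, whose lowest is Aqp7 at -2.36. Because Car4 was chosen for its fall, its place is a description only.

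The genes whose levels followed Car4 most closely over the 8 hearts were Rnf144a (Pearson r = 0.998), Tspan7 (0.998), Clec3b (0.993), Hopx (0.993) and Tspan13 (0.993), with all 8 hearts shared and no test. These correlations hold the group difference: Rnf144a, a ubiquitin ligase gene, was at 9.18 ± 0.184 and 4.75 ± 0.643 FPKM, and Tspan7, a tetraspanin gene, at 66.3 ± 1.90 and 34.1 ± 5.21 FPKM. After the group means were subtracted, so that the spread among the knockout hearts counted most, the closest were 0610007P08Rik (0.988), Tspan7 (0.976), Rnf144a (0.975), AI480653 (0.970) and Papln (0.968). Papln was at 6.78 ± 0.567 and 2.72 ± 1.24 FPKM (limma adjusted p = 0.0108), while 0610007P08Rik and AI480653 were not called. Rank correlation could not single out 5 genes over 8 hearts, because ties put 20 and 17 genes in the closest places, with 0 of the first 5 and 2 of the second 5 names among them.

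The relatives of Car4 differed in how closely they followed it. Car8 had a Pearson r of 0.92 with Car4 over the 8 hearts and of -0.02 after the group means were subtracted. For Car7 the values were 0.96 and 0.48, for Car13 -0.91 and -0.44, and for Car14 -0.10 and -0.55. They were -0.03 and 0.19 for Car2, -0.22 and 0.15 for Car3, and -0.54 and -0.34 for Car5b. Car9 had -0.40 and -0.43, and Car12 -0.80 and -0.28. Each is over the same 8 libraries, which leaves values of this size imprecise, and is given with no test.

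Carbonic anhydrases work beside carriers that move bicarbonate, protons and lactate across the membrane. Of 14 bicarbonate and anion exchangers 5 reached the minimum, and none was called in limma (at an unadjusted p under 0.05, 1 was higher and 1 lower), with log2 changes from -0.35 to 0.25 and a median of 0.02. The counts of calls in the alternative analyses were at most 1 higher and 1 lower. The most abundant was the anion exchanger gene Slc4a3, at 32.8 ± 4.92 FPKM in wild type, against 32.2 ± 4.57 FPKM in knockout hearts. Of 16 proton and lactate carriers and their partners 10 were tested, 1 rose, 1 fell and 8 were not called, with a median of 0.04. Slc16a3, which encodes the lactate exporter MCT4, was at 1.64, 2.37, 2.07 and 1.30 FPKM in wild type, against 26.8, 20.9, 14.4 and 13.7 FPKM in knockout hearts, with no overlap (log2 change 2.77 ± 0.21, limma adjusted p = 0.000197). Slc9a3r2, a scaffold gene for the sodium-proton exchanger, fell from 65.1 ± 4.69 to 36.3 ± 4.47 FPKM (-0.83 ± 0.10, limma adjusted p = 0.00168). The lactate carrier gene Slc16a1, at 53.9 ± 7.56 and 56.1 ± 6.15 FPKM, was not called.

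HIF targets were also read in the same hearts, since loss of PHD enzymes is known to stabilise HIF. Of 16 textbook targets 11 rose, none fell in limma (also 0 at an unadjusted p under 0.05) and 5 were not called, with a median log2 change of 0.84. Egln3, itself a targeted gene of the knockout, is in this list and among the 5 not called. The smallest p-values were those of the glucose transporter gene Slc2a1 (2.33 ± 0.16, limma adjusted p = 0.000128), the glycolytic regulator gene Pfkfb3 (1.22 ± 0.10, limma adjusted p = 0.000383), the oxidoreductase gene Ero1l (1.11 ± 0.13, limma adjusted p = 0.00148) and the glycolytic enzyme gene Pgk1 (0.69 ± 0.09, limma adjusted p = 0.00178). Car9, the family's textbook HIF target, stayed under 1 FPKM in each of the 8 hearts.

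HIF is known to bind DNA at the core letters ACGTG or GCGTG. RefSeq promoters on GRCm38.p6, from 250 bases before to 50 after the start site, were at hand for 5 of the 9 members, Car4, Car5b, Car9, Car12 and Car14, and were searched for these letters on both strands. Either motif was in 4 of the 5, and in 43.8% of all 32851 promoters of 300 bases. ACGTG was in 19.6% of promoters and GCGTG in 32.4%. The windows around the ACGTG matches are shown 5′ to 3′ on the gene's own strand, because they place a high, a low and a lowered member side by side. The capitals mark CACGT, which reads ACGTG on the other strand.
Car14: cacccccctcctCACGTacaccggtttcg
Car9: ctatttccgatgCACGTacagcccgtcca
Car4: ggagccgactccCACGTctagccgtccgg
From the RefSeq start site the match lies at bases -7 to -3 in Car14 (chr3:95904676-95904704), -18 to -14 in Car9 (chr4:43506996-43507024) and 3 to 7 in Car4 (chr11:84957744-84957772). The RefSeq start sites differ from the GENCODE gene starts given above. Counted from the GENCODE starts, the Car4 match lies before the gene, the Car9 match inside it and the Car14 match across the start. Car5b had 5 matches of GCGTG, and Car12 had none of either motif in this window. A match describes letters in the window and does not show that a factor binds there. The 3 genes with the ACGTG match had different values: Car14 overlapped between the groups, Car9 was under 1 FPKM throughout, and Car4 was lower in all 4 knockout hearts.

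Other cell type markers were counted in the same fit. Of 12 ventricular cardiomyocyte markers 1 was called lower and none higher, with a median of -0.10, beside the level of Car14. The most abundant of them lie in the top ranks, where quantile normalisation gives each heart the same values, which limits the changes they can show. Myl2, for one, was listed only at 14925, 11528 or 7544 FPKM. Of 9 fibroblast markers 3 were called lower and none higher (median -0.38), of 10 smooth muscle and pericyte markers 2 higher and 1 lower (median -0.09), and of 9 macrophage markers 1 higher and none lower (median 0.18). Of 12 lung and airway epithelial markers 4 were tested and none was called in limma (0 at an unadjusted p under 0.05), with Cldn18 and Lamp3 listed at 0 in each heart. The part of these cell types in the values of the carbonic anhydrases was not tested.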

How the data were processed

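Total RNA of whole hearts was sequenced from 8 TruSeq libraries, per the labels' protocols. The authors aligned reads with TopHat2 to mm10 and quantified genes with Cufflinks, per the submitters' processing notes, without versions. The deposited values are not named and were read as FPKM, since Cufflinks gives FPKM; the 39 highest ranks hold 1 value in all 8 columns, so the table is quantile-normalised, and depth and counting error cannot be recovered. No columns were identical and 0 per-sample columns were left unused.

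Samples were grouped by genotype label. Genes averaging 1 FPKM or more were fitted as log2(FPKM + 1) in limma 3.58.1 (R 4.3.3; lmFit, eBayes with trend and robust), Benjamini-Hochberg adjusted over 11390 genes and called at adjusted p under 0.05. The fit was tested on simulated data. Sequences and overlaps came from GENCODE M21 and RefSeq with Python 3.11.15 and biopython 1.88. Alternatives changed the pseudocount, minimum, scaling, variance model, sample weights, replicate block, likeness measure and summed family, or left out each heart.

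The members and the lists (other carbonic anhydrases, bicarbonate carriers, proton and lactate carriers, HIF targets, and markers of capillary, pan-endothelial, cardiomyocyte, skeletal muscle, adipocyte, erythroid, lung and airway, fibroblast, smooth muscle and macrophage cells) were chosen with earlier results of these data known. Named were all 9 members, family genes with a row, the 5 genes most like Car4 by each measure, up to 6 called carriers per list, up to 4 called HIF and endothelial genes per list by smallest p, and at most 2 of the most abundant genes of other lists. Genes outside this rule (Slc36a2, Cfd, Cidec, Adipoq, Tnnt3, Slc4a3, Slc16a1, Pecam1, Cdh5, Fabp4, Lpl, Cd36, Fabp5, Ly6a, Rbp7, Clec14a, Egln1, Egln3, Cldn18, Lamp3) were chosen after their values were seen.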

Additional observations from a re-analysis of the deposited data

Results flagged for a closer look

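Of 60 groups of 4 hearts examined with Dixon's test for a value far from the others, 7 held such a value. Chance gives about 1 in 20 for normally distributed values without ties, which low genes need not be. Car5b was at 0.373 FPKM in wild type replicate 1, against 0.207 to 0.232 FPKM in the other wild type hearts. Car8 was at 5.82 FPKM in wild type replicate 1, below the 8.23 to 8.54 FPKM of the others. Without that heart the log2 change of Car8 was -1.04 ± 0.08. Car1 was at 0.0338 FPKM in wild type replicate 3 and listed at 0 in the other wild type hearts. With the others tied at 0 any value above 0 is flagged, so the flag of Car1 was fixed in advance. Car7 was at 0.870 FPKM in knockout replicate 2 and at 1.57 to 1.64 FPKM in the other knockout hearts, and without replicate 2 its log2 change was -0.86 ± 0.10. Summed lung and airway epithelial markers were at 1842 FPKM in wild type replicate 4 against 0.502 to 1.31 FPKM in the other wild type hearts. Summed fibroblast markers were at 1436 FPKM in wild type replicate 3 against 1233 to 1254 FPKM, and at 686 FPKM in knockout replicate 4 against 999 to 1039 FPKM.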

How the results depend on the processing

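As a description, the count of members called was 2 in 14 of the 15 alternatives and 3 with no minimum on the level, which added Car13. With a heart left out, the log2 change was -3.66 to -3.18 for Car4, -1.04 to -0.88 for Car8, -0.07 to 0.07 for Car14 and 0.05 to 1.88 for Car3. A pseudocount of 0.1 moved Car4 to -4.02. The share of Car4 in the family sum was 22.5% to 24.0% in wild type and 1.62% to 2.63% in knockout hearts over its alternatives.

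The count of all genes called, 1385, was between 574 and 1819 with 1 heart left out. Leaving out wild type replicate 2, 3 or 4 gave 574, 838 or 742 calls. Leaving out knockout replicate 2 or 3 gave 759 or 896, and leaving out knockout replicate 1 gave 1819. The replicate block gave 613 calls. Whether replicate numbers pair the hearts is not known. Deviations of same-numbered hearts correlated at -0.226 to 0.102, with 1 of 4 pairs over 0.1. Those of differently numbered hearts correlated at -0.186 to 0.274. Such deviations also hold other differences between single hearts, so these values cannot decide the question. The block kept the count of members called at 2. Array weights called 1 bicarbonate carrier higher and 1 lower, leaving out knockout replicate 4 called 1 lower, and no minimum gave 2 proton and lactate carriers higher and 3 lower. The causes of these shifts were not tested. Depth is unknown, so no detection limit can be given for genes listed at 0.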
